A study of Mus musculus with 15 samples.

Results

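Inhibitory transmission in the cerebellum was followed through 27 genes of GABA and glycine signalling, chosen by symbol as receptor subunits, enzymes, transporters and scaffold proteins of inhibitory synapses. The choice was made with earlier results of these data known, so the shares of called members only describe this list. All 27 were among the 24420 gene symbols of the count table, and all 27 passed the filter on low counts that left 16808 genes for testing. The set comprises 10 subunits of the GABA-A receptor, both subunits of the GABA-B receptor, 4 subunits of the glycine receptor, 3 enzymes of GABA synthesis and breakdown, 4 transmitter transporters, 2 chloride transporters and 2 postsynaptic scaffold genes.

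GABA is made from glutamate, loaded into vesicles together with or in place of glycine, and released onto chloride channels (GABA-A and glycine receptors) and onto the G protein-coupled GABA-B receptor. In the cerebellar cortex, Purkinje cells, molecular layer interneurons and Golgi cells release GABA, and many Golgi cells also release glycine, whereas granule cells are excitatory and receive inhibition through receptors that contain the alpha 6 and delta subunits. The direction and size of the chloride current depend on the balance of chloride uptake and export by cation-chloride cotransporters.

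RNA of dissected mouse cerebellum was sequenced in 3 groups of 5 libraries. WT mice were wild type FVB/nJ at 9 weeks of age. Mice of the 82Q group carried Atxn1[82Q], an ataxin-1 allele with an expanded polyglutamine tract that models spinocerebellar ataxia type 1, on FVB/nJ at 9 weeks. Mice of the 82Q_M120A group carried Atxn1[82Q] and CalphaLoxM120A, a modified catalytic subunit of protein kinase A, on a mixed C57BL/6J and FVB/nJ background at 8 weeks. No group carried the kinase allele without Atxn1[82Q], so in each comparison with 82Q_M120A the kinase allele, strain and age cannot be told apart. The labels name no promoter or cell type for either allele, although the series describes Atxn1[82Q] as a knockin, and they call the samples of a group replicates without naming animals or litters. The p-values therefore measure only the spread between these samples, which may be technical.

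Library totals ran from 38.3 to 99.4 M counts (M, mega). A count per gene cannot distinguish an altered allele from its wild-type form, so Atxn1 and Prkaca, the gene of the kinase subunit, do not check the genotypes. Atxn1 was at 52.9 CPM in WT, 56.5 in 82Q and 53.9 CPM in 82Q_M120A. Prkaca was at 168 CPM in WT, 164 in 82Q and 145 CPM in 82Q_M120A. The summed level of 12 Purkinje cell markers was 10460 to 11921 CPM in WT, 3684 to 4553 in 82Q and 3745 to 5196 in 82Q_M120A, and all 12 fell in both comparisons with WT. Summed granule cell markers stood at 6206 to 7108, 6527 to 7168 and 7007 to 7789 CPM in the same order, so the markers of cerebellar cortex were present in every library. The summed markers of choroid plexus, a tissue that adjoins the cerebellum, varied from 203 to 4667 CPM and were not balanced: 4 of the 5 WT libraries were at 2808 to 4349 CPM and 4 of the 5 of 82Q_M120A at 203 to 259, with medians of 3640 in WT, 719 in 82Q and 242 in 82Q_M120A. Calls that change with a choroid plexus covariate are named with their genes. These are bulk samples, in which fewer cells of a type and less RNA per cell cannot be told apart.

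Values are CPM (counts per mega counts of the library, after scaling with TMM factors) as mean ± SD with n = 5 per group. A gene is called higher or lower at an adjusted p under 0.05 in edgeR's quasi-likelihood test with Benjamini-Hochberg adjustment over all 16808 genes, and log2 fold changes carry an approximate standard error from that test. Libraries are numbered by column order within a group.

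The promoters of 4 members are shown because the results turn on their genes: the GABA-B subunit genes Gabbr1 and Gabbr2 and the adhesion gene Nlgn2, which fell together in both comparisons with WT, and the glycine receptor gene Glra2, which rose in 82Q_M120A. Each sequence runs 5′ to 3′ on the gene's own strand from 250 bases before to 50 bases after the RefSeq start (GRCm38.p6). They lie at chr17:37045716-37046015 on the plus strand (Gabbr1), chr4:46991665-46991964 on the minus strand (Gabbr2), chr11:69837735-69838034 on the minus strand (Nlgn2) and chrX:165327344-165327643 on the minus strand (Glra2). Capitals mark the GC box GGGCGG, or its reverse complement, and in Glra2 also the TATA box TATAAA, on its reverse strand.
Gabbr1 promoter: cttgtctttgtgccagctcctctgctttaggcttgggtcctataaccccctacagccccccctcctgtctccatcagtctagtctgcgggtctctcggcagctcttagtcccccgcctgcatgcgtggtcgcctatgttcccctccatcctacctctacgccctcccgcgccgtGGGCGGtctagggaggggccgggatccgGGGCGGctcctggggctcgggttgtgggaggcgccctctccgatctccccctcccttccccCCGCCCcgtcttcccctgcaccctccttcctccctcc
Gabbr2 promoter: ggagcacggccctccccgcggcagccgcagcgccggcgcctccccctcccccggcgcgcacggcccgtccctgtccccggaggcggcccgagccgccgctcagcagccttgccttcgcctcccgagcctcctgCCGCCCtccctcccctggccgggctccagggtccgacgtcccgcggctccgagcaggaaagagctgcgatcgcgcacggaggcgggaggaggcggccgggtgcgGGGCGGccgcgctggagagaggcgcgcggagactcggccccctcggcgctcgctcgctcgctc
Nlgn2 promoter: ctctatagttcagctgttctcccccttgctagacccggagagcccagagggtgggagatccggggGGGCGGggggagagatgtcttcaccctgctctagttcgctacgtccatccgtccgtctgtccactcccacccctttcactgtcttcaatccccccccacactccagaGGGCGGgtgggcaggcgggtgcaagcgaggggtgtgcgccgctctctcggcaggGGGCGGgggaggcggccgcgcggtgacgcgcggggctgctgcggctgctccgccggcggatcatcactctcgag
Glra2 promoter: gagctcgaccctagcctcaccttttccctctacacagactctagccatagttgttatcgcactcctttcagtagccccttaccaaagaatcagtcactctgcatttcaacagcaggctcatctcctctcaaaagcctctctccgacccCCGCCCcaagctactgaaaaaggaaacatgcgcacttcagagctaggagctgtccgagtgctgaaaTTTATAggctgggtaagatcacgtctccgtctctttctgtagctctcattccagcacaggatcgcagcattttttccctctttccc
The promoters of Gabbr1 and Nlgn2 each hold 3 GC boxes, that of Gabbr2 holds 2, and that of Glra2 holds 1 and is the only one of the 4 with a TATA box. Their GC content is 67.3% in Gabbr1, 80.3% in Gabbr2, 68.7% in Nlgn2 and 50.3% in Glra2, against a median of 52.7% over 32851 mouse promoters of the same length. A GC box was present in 35.7% of those promoters and in 16 of the 31 promoters (51.6%) that matched 23 of the members. Of the other motifs searched on both strands, the cAMP response element TGACGTCA was in 1.79% of all promoters and in 0 of the 31. The nuclear receptor core site AGGTCA was in 16.3% of all and in 1 of the 31 (Slc6a11). The Capicua motif TGAATGAA was in 1.3% of all and in 0 of the 31, and its other form TGAATGGA in 1.21% of all and in 1 of the 31 (Gabrg3). TATAAA was in 13.6% of all and in 5 of the 31. These are matches of letters in a short window.

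In 82Q against WT, the data show lower transcripts for both GABA-B receptor subunits, for the GABA-synthesizing enzyme gene Gad1, for the vesicular transporter gene Slc32a1 and for Nlgn2, together with rises of 2 GABA-A receptor subunits, of the GABA transaminase gene Abat and of 2 plasma membrane transporters. Of the 27 members, 5 rose and 5 fell, so that 37.0% were called, beside 18.7% of all tested genes. Calls upward made up 8.63% of all tested genes and calls downward 10.1%. The groups did not overlap for 6 members (22.2%), beside 16.6% of all tested genes. The median log2 fold change of the members was 0.09, beside 0.01 over all tested genes, and the median absolute value was 0.16 beside 0.09.

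In 82Q_M120A against WT, 3 members rose and 9 fell, and 44.4% were called, beside 36.4% of all tested genes (18.6% higher and 17.8% lower). The groups did not overlap for 9 members (33.3%), beside 25.3% of all tested genes. In 82Q_M120A against 82Q, 2 members rose and 4 fell, and 22.2% were called, close to the 18.9% of all tested genes (10.3% higher and 8.63% lower). There the groups did not overlap for 5 members (18.5%), beside 12.1% of all tested genes. Both comparisons with WT use the same WT libraries, so their values are given side by side and not as independent results. In all, 17 members were called in at least 1 comparison and 10 in none.

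**Figure D1:**
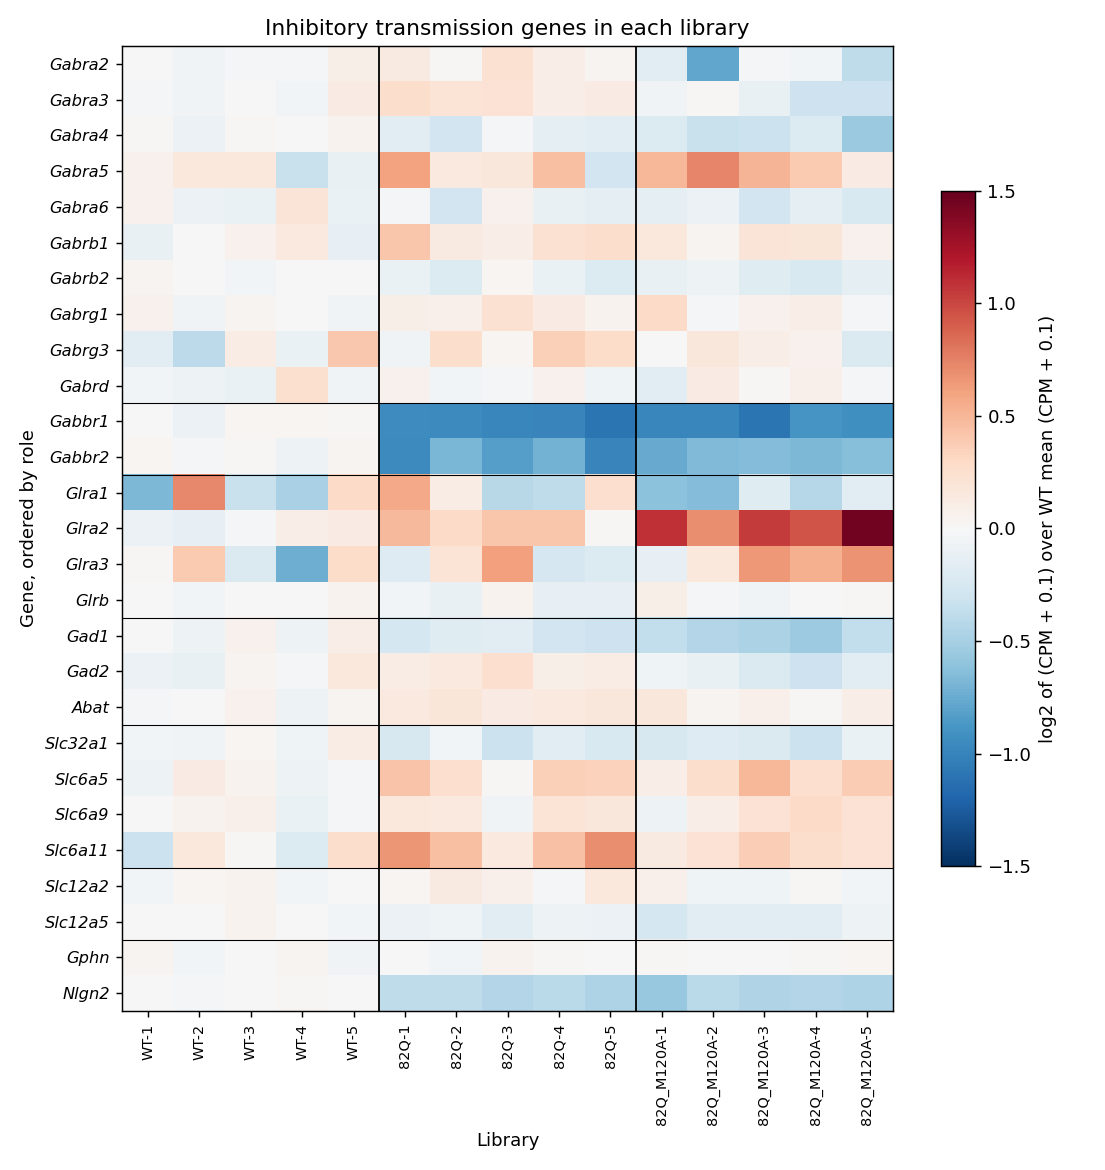
Each cell is the log2 ratio of a member's CPM in a library (plus 0.1) to the WT mean (plus 0.1), with members in rows by role and the 15 libraries in columns by group. Gabbr1, Gabbr2 and Nlgn2 are low in all 10 libraries with Atxn1[82Q], and Glra2 is highest in the 5 libraries of 82Q_M120A.

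The GABA-B receptor is an obligate pair: Gabbr1 (chr17:37045966-37075067, mm10) encodes the subunit that binds GABA, and Gabbr2 (chr4:46662305-46991873) the subunit that couples to G proteins. Gabbr1 was at 927, 868, 935, 936 and 933 CPM in the WT libraries, at 480, 476, 466, 461 and 430 in 82Q, and at 466, 467, 429, 497 and 485 in 82Q_M120A. The lowest WT library was far above the highest of the other 10, and the libraries of 82Q and 82Q_M120A were intermingled. Gabbr1 fell from 920 ± 29.2 to 463 ± 19.4 CPM in 82Q, a log2 fold change of -0.99 ± 0.04 (1.99-fold lower, adjusted p = 3.04e-11, edgeR). In 82Q_M120A it stood at 469 ± 25.5 CPM, a log2 fold change of -0.97 ± 0.04 against WT (adjusted p = 1.82e-11, edgeR). Between 82Q_M120A and 82Q the difference was 0.02, with a 95% interval of -0.07 to 0.11 (adjusted p = 0.801, edgeR).

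Gabbr2 was at 280, 272, 279, 261 and 283 CPM in WT, at 142, 171, 155, 168 and 139 in 82Q, and at 163, 173, 175, 173 and 176 in 82Q_M120A. All 10 libraries with Atxn1[82Q] lay below all WT libraries. It fell by 0.83 ± 0.05 on the log2 scale in 82Q (1.77-fold lower, from 275 ± 8.87 to 155 ± 14.8 CPM, adjusted p = 1.05e-09, edgeR) and by 0.68 ± 0.05 in 82Q_M120A (1.6-fold lower, 172 ± 5.24 CPM, adjusted p = 1.02e-08, edgeR). Gabbr2 was called higher in 82Q_M120A than in 82Q, by 0.15 ± 0.05 (adjusted p = 0.0453, edgeR), but the groups overlapped. That call was lost without 82Q-1 (adjusted p = 0.113), 82Q-3 (0.0776), 82Q-5 (0.117), or any single one of 82Q_M120A-2 (0.0786), 82Q_M120A-3 (0.085), 82Q_M120A-4 (0.0749) and 82Q_M120A-5 (0.0921). It was also lost with a choroid plexus covariate (0.0646), in a fit of only these groups (0.0891) and without the filter on low counts (0.0508). The ratio of Gabbr1 to Gabbr2 counts, chosen after its values were seen, averaged 3.35 in WT, 3.0 in 82Q and 2.73 in 82Q_M120A, with ranges of 3.2 to 3.59, 2.75 to 3.38 and 2.46 to 2.88. GABA-B receptors are abundant in Purkinje cells and also present in other cerebellar neurons, and the summed Purkinje cell markers moved with both genes; their part in the result was not tested.

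Nlgn2 (chr11:69823122-69837784) encodes neuroligin 2, the adhesion protein of inhibitory postsynapses. Its level was 324, 320, 327, 330 and 323 CPM in WT, 250, 249, 239, 246 and 236 in 82Q, and 219, 245, 237, 240 and 235 in 82Q_M120A. The WT libraries spanned a narrow range well above all others. Nlgn2 fell from 325 ± 3.93 to 244 ± 6.02 CPM in 82Q, by 0.41 ± 0.03 on the log2 scale (adjusted p = 9.24e-09, edgeR), and to 235 ± 9.57 CPM in 82Q_M120A, by 0.46 ± 0.03 (adjusted p = 1.55e-09, edgeR). The difference between 82Q_M120A and 82Q was -0.05, with a 95% interval of -0.12 to 0.01. Gphn, which encodes the scaffold protein gephyrin that anchors glycine and GABA-A receptors, was at 126 ± 4.04 CPM in WT, 126 ± 3.01 in 82Q and 127 ± 1.17 CPM in 82Q_M120A. Its 95% intervals on the log2 scale ran from -0.05 to 0.06 in each of the 3 comparisons, and the groups overlapped throughout.

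**Figure D2:**
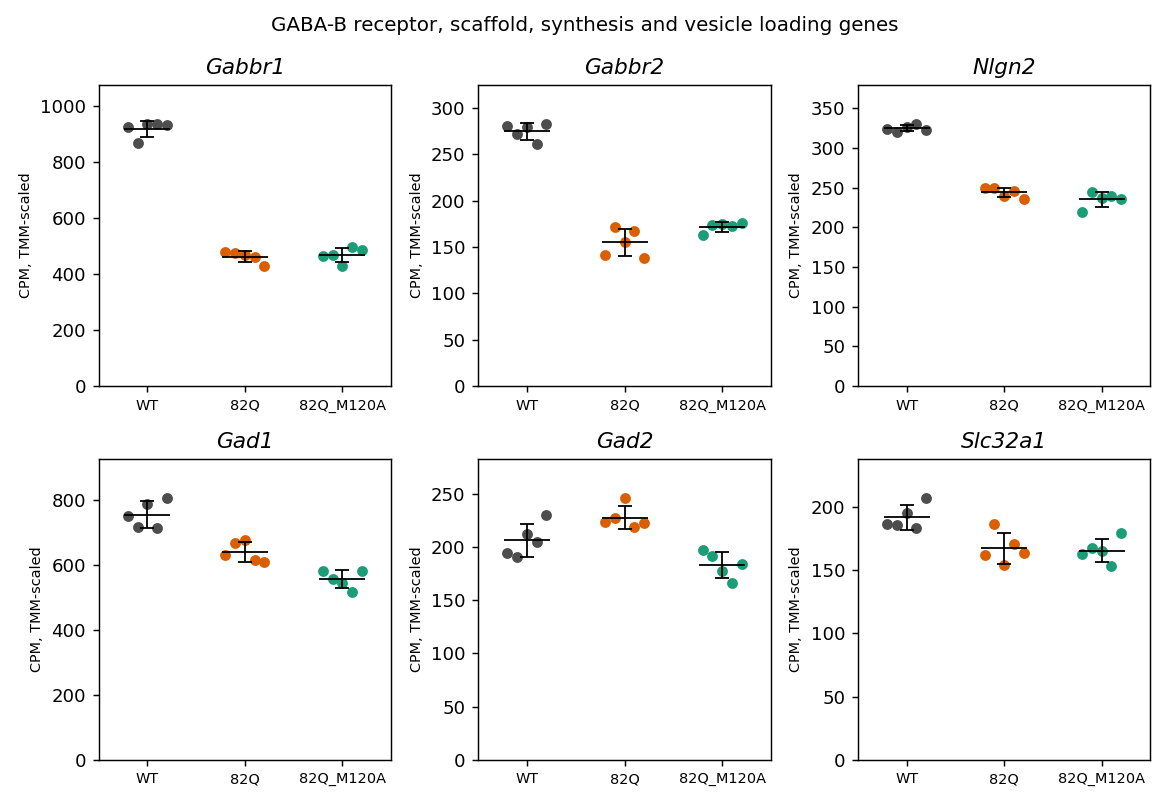
Points are the CPM of single libraries by group for Gabbr1, Gabbr2, Nlgn2, Gad1, Gad2 and Slc32a1, with bars for the mean ± SD (n = 5). For Gabbr1, Gabbr2 and Nlgn2 the WT libraries lie above all others, for Gad1 the 3 groups form separate steps down, and for Gad2 the libraries of 82Q_M120A lie below those of 82Q.

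GABA is made by 2 glutamate decarboxylases. Gad1 (chr2:70553072-70602014) encodes GAD67, which supplies most GABA, and Gad2 (chr2:22622205-22693874) encodes GAD65, which is enriched at nerve terminals. Gad1 was at 751, 718, 788, 715 and 808 CPM in WT, 631, 668, 677, 618 and 612 in 82Q, and 583, 557, 545, 518 and 584 in 82Q_M120A. No library of one group reached the range of another. Gad1 fell by 0.24 ± 0.05 on the log2 scale in 82Q (756 ± 41.5 to 641 ± 29.9 CPM, adjusted p = 0.00122, edgeR) and by 0.44 ± 0.05 in 82Q_M120A (557 ± 27.6 CPM, adjusted p = 8.02e-07, edgeR). It was also lower in 82Q_M120A than in 82Q, with a log2 fold change of -0.20 ± 0.05 (adjusted p = 0.00508, edgeR).

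Gad2 followed another order. Its libraries were at 195, 191, 212, 205 and 230 CPM in WT, 224, 228, 246, 219 and 223 in 82Q, and 198, 192, 177, 166 and 184 in 82Q_M120A. The highest library of 82Q_M120A was below the lowest of 82Q, and WT overlapped both. Gad2 fell from 228 ± 10.8 CPM in 82Q to 183 ± 12.3 in 82Q_M120A, a log2 fold change of -0.31 ± 0.05 (adjusted p = 0.000434, edgeR). Against WT (207 ± 15.7 CPM), it was not called in 82Q (0.14 ± 0.05, adjusted p = 0.0699, edgeR). It was called higher there without WT-5 (0.18, adjusted p = 0.0175) and without TMM scaling (0.19, adjusted p = 0.0129). In 82Q_M120A against WT it was called lower (-0.17 ± 0.05, adjusted p = 0.0172, edgeR), a call that was lost without WT-5 (-0.13, adjusted p = 0.0516), without TMM scaling (0.0754) and with a choroid plexus covariate (0.0897). The ratio of Gad1 to Gad2 counts within a library was 3.49 to 3.85 in WT, 2.75 to 2.93 in 82Q and 2.9 to 3.17 in 82Q_M120A, with means of 3.67, 2.81 and 3.04.

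Slc32a1, which encodes the transporter that loads both GABA and glycine into vesicles, was at 187, 186, 196, 184 and 207 CPM in WT, 162, 187, 154, 171 and 164 in 82Q, and 163, 167, 165, 154 and 180 in 82Q_M120A. It fell by 0.20 ± 0.05 on the log2 scale in 82Q (192 ± 9.8 to 167 ± 12.3 CPM, adjusted p = 0.00953, edgeR) and by 0.21 ± 0.05 in 82Q_M120A (166 ± 9.3 CPM, adjusted p = 0.00302, edgeR). Library 82Q-2 alone reached the WT range, and all libraries of 82Q_M120A were below WT. Slc32a1 shares 697 exon bases with an antisense gene model that is not in the count table. Beside Gad1, Gad2 and Slc32a1, which every GABA neuron of the cerebellum expresses, the summed Purkinje cell markers were lower in both groups with Atxn1[82Q]. The summed markers of molecular layer interneurons and Golgi cells were at 700 to 818 CPM in WT, 708 to 768 in 82Q and 569 to 757 in 82Q_M120A. Kit contributed most to that sum, at a mean of 328 CPM over the libraries. Of these 12 markers, 1 rose and 1 fell in 82Q against WT, and 3 rose and 5 fell in 82Q_M120A against WT. In 82Q_M120A against 82Q, 0 rose and 2 fell. The part of either marker list in these results was not tested.

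Abat encodes GABA transaminase, which starts the breakdown of GABA. Its libraries were at 448, 457, 480, 435 and 469 CPM in WT, 507, 519, 497, 506 and 514 in 82Q, and 516, 473, 484, 463 and 492 in 82Q_M120A. All 82Q libraries were above all WT libraries, whereas 82Q_M120A overlapped both. Abat rose from 458 ± 17.4 to 508 ± 8.57 CPM in 82Q, by 0.15 ± 0.04 on the log2 scale (adjusted p = 0.00645, edgeR). At 485 ± 20.4 CPM, 82Q_M120A differed from WT by 0.08 ± 0.04 (adjusted p = 0.0773, edgeR) and from 82Q by -0.07 ± 0.04 (adjusted p = 0.223, edgeR), neither of them called. The former passed the threshold without 82Q_M120A-4 (0.10, adjusted p = 0.0458), with the choroid plexus covariate (0.13, adjusted p = 0.00769) and with DESeq2 (0.0452).

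Among the plasma membrane transporters, Slc6a11 encodes GAT-3, the GABA transporter of astrocytes. Its level was 50.9, 71.2, 64.4, 55.1 and 76.5 CPM in WT, 101, 86.9, 70.5, 86.4 and 103 in 82Q, and 70.1, 74, 82.4, 76.4 and 73.9 in 82Q_M120A. Library 82Q-3 lay inside the WT range and the other 4 of 82Q above it. Slc6a11 rose by 0.50 ± 0.12 on the log2 scale in 82Q (1.41-fold, 63.6 ± 10.7 to 89.7 ± 13.3 CPM, adjusted p = 0.00794, edgeR). At 75.4 ± 4.53 CPM, 82Q_M120A differed from WT by 0.25 ± 0.12 (adjusted p = 0.114, edgeR), which passed the threshold only without WT-5 among the 10 fits that left out a library (0.32, adjusted p = 0.0479). Its difference from 82Q was -0.25 ± 0.12 (adjusted p = 0.156, edgeR).

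Slc6a5 encodes GlyT2, the glycine transporter of glycine-releasing neurons. It was at 12.9, 14.8, 14.2, 12.9 and 13.4 CPM in WT, 18.4, 16.3, 13.9, 17.5 and 17.4 in 82Q, and 14.6, 16.4, 19.4, 16.3 and 17.9 in 82Q_M120A. In each group with Atxn1[82Q], 4 libraries were above all of WT and 1 was within its range. Slc6a5 rose by 0.29 ± 0.08 on the log2 scale in 82Q (13.7 ± 0.836 to 16.7 ± 1.74 CPM, adjusted p = 0.0156, edgeR) and by 0.31 ± 0.08 in 82Q_M120A (16.9 ± 1.8 CPM, adjusted p = 0.00521, edgeR). Its count relative to that of Slc32a1 averaged 0.0713 in WT, 0.0999 in 82Q and 0.102 in 82Q_M120A. No library of the latter groups (lowest 0.0872) reached down to WT (highest 0.0799). Slc6a9, which encodes the mainly glial glycine transporter GlyT1, was at 109 ± 5, 119 ± 7.95 and 121 ± 11.6 CPM and was not called. Without 82Q_M120A-1 it passed the threshold in 82Q_M120A against WT (0.20, adjusted p = 0.00432, edgeR). Slc6a9 shares 1429 exon bases with the antisense gene Ccdc24, where reads could have been dropped or miscounted if strand was not used.

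Both GAT-3 and GlyT2 are abundant in the deep nuclei and brainstem, tissue that a cerebellar dissection can take along in varying amounts. Of 18 markers of brainstem and cerebellar nuclei, 12 had a mean under 0.1 CPM and 10 were at 0 in at least 1 library, and none of the 18 was at 0 in all. Their summed level was 26.5 to 43.1 CPM in WT, 40.3 to 64.8 in 82Q and 46.4 to 64.1 in 82Q_M120A, made up mostly by Slc17a6 and by Spp1, a gene that activated microglia also express. With a score of the 6 tested markers as a covariate, a score that itself differs between the groups, Slc6a11 was at 0.43 in 82Q against WT (adjusted p = 0.0185, edgeR). Slc6a5 was at 0.29 in 82Q (adjusted p = 0.0331) and at 0.31 in 82Q_M120A (adjusted p = 0.0119) in that fit. The summed markers of Bergmann glia and astrocytes were at 4926 to 5272 CPM in WT, 5077 to 5257 in 82Q and 4750 to 5333 in 82Q_M120A. Within that list of 12, 4 rose and 4 fell in 82Q against WT. Gfap lay at 140 to 180 CPM in WT and 397 to 446 in 82Q, Aqp4 at 347 to 384 and 468 to 559. In the other direction, Slc1a3 lay at 1534 to 1691 CPM in WT and 1258 to 1371 in 82Q. Hopx lay at 171 to 195 and 128 to 152, and Sept4 at 617 to 696 and 514 to 547. All 10 microglia markers rose in 82Q, with a sum of 132 to 146 CPM in WT and 208 to 221 in 82Q, and 8 rose and 1 fell in 82Q_M120A against WT (sum 196 to 235 CPM). Of 10 oligodendrocyte markers, 8 rose in 82Q and 10 in 82Q_M120A against WT. The part of these cell types and of adjoining tissue in the values of Slc6a11 and Slc6a5 was not tested.

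**Figure D3:**
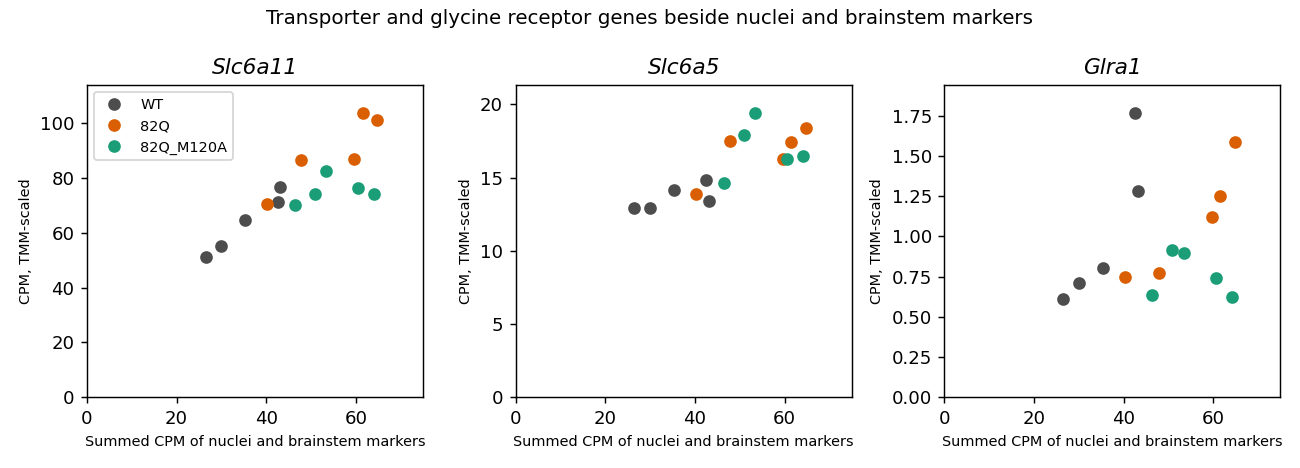
Points are single libraries coloured by group, with the summed CPM of the brainstem and cerebellar nuclei markers on the horizontal axis and the CPM of Slc6a11, Slc6a5 or Glra1 on the vertical axis. The WT libraries sit at the low end of the marker sum, from 26.5 to 43.1 CPM, and the libraries of both other groups mostly above them.

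The GABA-A receptor subunits showed smaller differences from WT than the GABA-B subunits. Of the 10 members, 2 were called in 82Q against WT, both higher, 1 rose and 2 fell in 82Q_M120A against WT, and 2 were called in 82Q_M120A against 82Q, both lower. These are 20%, 30% and 20% of the subunits, near or below the 18.7%, 36.4% and 18.9% of all tested genes. Per kilobase of exon, Gabra6, the subunit of granule cells, had the highest level of all members at 394 CPM per kilobase in WT. Gabra6 was at 981 ± 92.2 CPM in WT, 921 ± 84.8 in 82Q and 871 ± 49.2 CPM in 82Q_M120A, and was not called (adjusted p = 0.0572 for 82Q_M120A against WT, edgeR). That last comparison passed the threshold without WT-2 (-0.20, adjusted p = 0.0459), WT-3 (0.0442), WT-5 (0.043) or 82Q_M120A-2 (0.0437), and with a choroid plexus covariate (-0.25, adjusted p = 0.00928). It also passed with DESeq2 (adjusted p = 0.0339) and in an edgeR fit of only 82Q_M120A and WT (0.0438). Gabrd, whose delta subunit joins alpha 6 in extrasynaptic receptors of granule cells, was at 258 ± 26, 258 ± 11.5 and 259 ± 19.8 CPM, with a 95% interval of -0.13 to 0.13 for 82Q against WT. With a score of the choroid plexus markers as a covariate, Gabrd was called lower in 82Q_M120A than in WT (-0.13, adjusted p = 0.0158, edgeR).

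Gabra2 encodes the alpha 2 subunit (chr5:70957597-71095849). It was at 62.6, 60.5, 61.9, 62.1 and 66.8 CPM in WT, 69.2, 63.7, 73.6, 67.5 and 64.8 in 82Q, and 56.4, 36.6, 61.7, 61 and 48.4 in 82Q_M120A. Libraries of 82Q_M120A were spread from 36.6 to 61.7 CPM (SD 10.5), against an SD of 2.39 in WT and 3.94 in 82Q. Gabra2 was lower in 82Q_M120A than in 82Q by a log2 fold change of -0.36 ± 0.11 (adjusted p = 0.0316, edgeR), with no overlap. The call was lost without 82Q-1 (adjusted p = 0.0622), 82Q-3 (0.073), 82Q-4 (0.0542) or 82Q_M120A-5 (0.0719), with a choroid plexus covariate (0.0554) and in a fit of only these groups (0.0864). Against WT the difference was -0.25 ± 0.11 (adjusted p = 0.0882, edgeR), and it passed the threshold without 82Q_M120A-3 (-0.31, adjusted p = 0.0414) and with DESeq2 (0.0373). Inbred C57BL/6J mice are known to carry a deletion in an intron of Gabra2 that lowers its transcript, and the mixed strain of 82Q_M120A cannot be told apart from its other differences here.

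Gabra3, the alpha 3 subunit gene, was at 20.3, 19.9, 20.7, 20 and 22.6 CPM in WT, 24.9, 23.9, 24.1, 22.2 and 22.5 in 82Q, and 19.9, 20.9, 19.1, 16.6 and 16.6 in 82Q_M120A. It was lower in 82Q_M120A than in 82Q without overlap, by a log2 fold change of -0.34 ± 0.06 (23.5 ± 1.12 to 18.6 ± 1.93 CPM, adjusted p = 0.000867, edgeR). It was called higher in 82Q than in WT (0.19 ± 0.06, adjusted p = 0.0425, edgeR), where the groups overlapped through WT-5. This call was lost without any one of WT-4 (adjusted p = 0.091), WT-3 (0.081), WT-2 (0.0934), WT-1 (0.0911), 82Q-1 (0.104), 82Q-2 (0.0825) and 82Q-3 (0.0876), and with the brainstem and nuclei score as a covariate (0.131). Against WT, 82Q_M120A stood at -0.15 ± 0.06 (adjusted p = 0.0669, edgeR) and passed the threshold without 82Q_M120A-1 (adjusted p = 0.045) or 82Q_M120A-2 (0.02), and with the brainstem and nuclei covariate (-0.18, adjusted p = 0.0354).

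Gabra4, the alpha 4 subunit gene, was at 47.4, 44.2, 47.3, 47 and 48.6 CPM in WT, 41.8, 38.4, 46.2, 42.2 and 41.7 in 82Q, and 40.7, 37.3, 37.5, 40.7 and 31.9 in 82Q_M120A. All 5 libraries of 82Q_M120A were below WT, and 4 of the 5 of 82Q. Gabra4 fell by 0.32 ± 0.06 on the log2 scale in 82Q_M120A (46.9 ± 1.63 to 37.6 ± 3.62 CPM, adjusted p = 0.000414, edgeR). In 82Q it stood at -0.16 ± 0.06 against WT (adjusted p = 0.0764, edgeR). It was called there without 82Q-3 (-0.19, adjusted p = 0.0329) and in a fit of only 82Q and WT (0.0156). In 82Q_M120A against 82Q it was not called (-0.16 ± 0.06, adjusted p = 0.0654, edgeR) but passed the threshold without 82Q-2 (adjusted p = 0.0336), 82Q_M120A-1 (0.0354) or 82Q_M120A-4 (0.0396), and with DESeq2 (0.0447).

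Gabrb1 and Gabrb2 encode the beta 1 and beta 2 subunits. Gabrb1 was at 17.3, 18.7, 19.7, 20.9 and 17.3 CPM in WT, 25, 20.5, 20, 21.9 and 22.5 in 82Q, and 20.9, 19.3, 21.4, 21.2 and 19.6 in 82Q_M120A. It rose in 82Q by 0.23 ± 0.06 (adjusted p = 0.0172, edgeR), with overlapping groups, and the call was lost without WT-1 (0.20, adjusted p = 0.0508) or 82Q-1 (0.17, adjusted p = 0.0541). Gabrb1 and Gabra4 lie head to head and share 46 antisense exon bases. If strand was not used, reads there could have been dropped or miscounted. Gabrb2 was at 530, 510, 501, 516 and 511 CPM in WT, 478, 447, 525, 481 and 445 in 82Q, and 476, 487, 452, 438 and 468 in 82Q_M120A. It fell in 82Q_M120A without overlap with WT, by 0.15 ± 0.04 (514 ± 10.9 to 464 ± 19.5 CPM, adjusted p = 0.0162, edgeR), a call lost without TMM scaling (-0.10, adjusted p = 0.0872). In 82Q it stood at -0.11 ± 0.04 (adjusted p = 0.0898, edgeR), where 82Q-3 alone reached the WT range. It passed the threshold without that library (-0.15, adjusted p = 0.0116) and with DESeq2 (0.0491).

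The remaining GABA-A subunits were Gabrg1, Gabrg3 and Gabra5. Gabrg1, a gamma subunit gene of Bergmann glia, was at 23.8 ± 0.879, 25.8 ± 1.3 and 25.2 ± 2.42 CPM and was not called. Gabra5 and Gabrg3, neighbours on chromosome 7 with a gap of 20.5 kb, were both under 1 CPM in each group mean. Gabra5 was at 0.525, 0.569, 0.569, 0.376 and 0.454 CPM in WT, 0.813, 0.561, 0.575, 0.716 and 0.389 in 82Q, and 0.746, 0.898, 0.756, 0.689 and 0.552 in 82Q_M120A, on 17 to 76 counts per library. It was called higher in 82Q_M120A than in WT (0.53 ± 0.19, adjusted p = 0.0375, edgeR), with overlap. The call was lost without WT-1 (adjusted p = 0.0587), WT-4 (0.0993), WT-5 (0.0702), 82Q_M120A-1 (0.0607), 82Q_M120A-2 (0.0911) or 82Q_M120A-3 (0.0664), and with the brainstem and nuclei (0.0785) or choroid plexus (0.13) covariate. Gabra5 also shares 148 exon bases with an antisense gene model. Gabrg3, at 0.499 to 0.581 CPM in the group means, was not called.

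**Figure D4:**
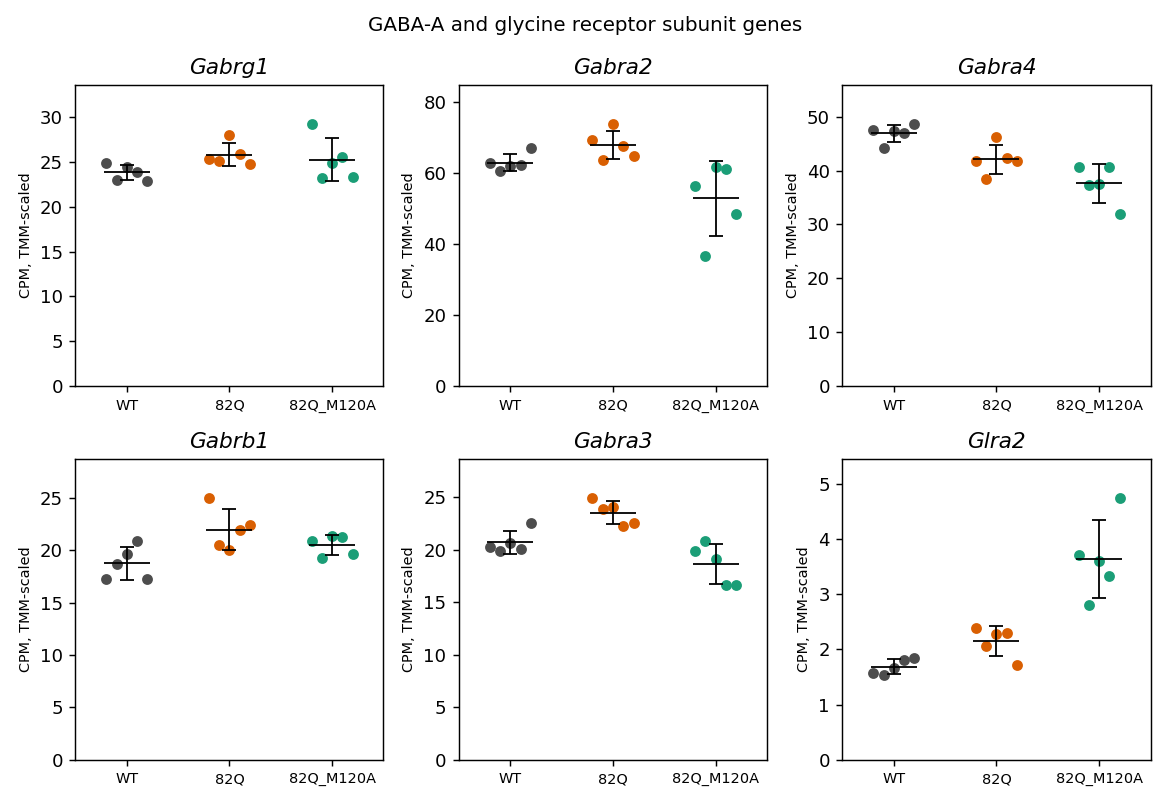
Points are the CPM of single libraries by group for Gabrg1, Gabra2, Gabra4, Gabrb1, Gabra3 and Glra2, with bars for the mean ± SD (n = 5). Gabrg1, Gabra2, Gabra4 and Gabrb1 are neighbours on chromosome 5, and their group means do not follow one order. Gabra2 is widely spread in 82Q_M120A, and Glra2 is highest in that group.

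Glycine receptors combine an alpha subunit, which binds glycine, with the beta subunit of Glrb. Glra2 (chrX:165129017-165327393), whose alpha 2 subunit predominates in the developing nervous system, was at 1.58, 1.54, 1.66, 1.81 and 1.84 CPM in WT, 2.4, 2.07, 2.28, 2.29 and 1.71 in 82Q, and 3.72, 2.8, 3.61, 3.33 and 4.75 in 82Q_M120A. All libraries of 82Q_M120A were above all of the other 10. Glra2 rose by 1.12 ± 0.13 on the log2 scale in 82Q_M120A against WT (2.17-fold, 1.69 ± 0.138 to 3.64 ± 0.713 CPM, adjusted p = 2.19e-06, edgeR). Against 82Q (2.15 ± 0.272 CPM) the rise was 0.76 ± 0.12 (1.7-fold, adjusted p = 0.000317, edgeR). In 82Q against WT it stood at 0.36 ± 0.13 (adjusted p = 0.0652, edgeR). It passed the threshold there without 82Q-5 (0.43, adjusted p = 0.0308) and in a fit of only 82Q and WT (0.35, adjusted p = 0.0308). The level is low, and 206 to 456 counts per library lay behind the 82Q_M120A values and 69 to 134 behind those of WT.

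Glrb was at 260 ± 6.09 CPM in WT, 248 ± 12.9 in 82Q and 261 ± 9.96 CPM in 82Q_M120A and was not called. Without 82Q-3 it passed the threshold in 82Q against WT (-0.10, adjusted p = 0.0359) and in 82Q_M120A against 82Q (0.11, adjusted p = 0.0275). Glra1, the adult alpha subunit of brainstem and spinal cord, was at 1.04 ± 0.482, 1.1 ± 0.348 and 0.765 ± 0.138 CPM, with a 95% interval of -0.49 to 0.68 for 82Q against WT. Glra3 was at 0.16 ± 0.0738, 0.173 ± 0.0771 and 0.244 ± 0.0771 CPM on 4 to 30 counts per library. Differences in Glra1 and Glra3 of the size seen for most members were not detectable at these counts.

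The chloride gradient that decides the effect of both receptor types is set largely by Slc12a5, which encodes the neuronal chloride exporter KCC2, and Slc12a2, which encodes the importer NKCC1. Slc12a5 was at 673, 676, 700, 669 and 654 CPM in WT, 635, 644, 598, 642 and 636 in 82Q, and 562, 598, 607, 600 and 642 in 82Q_M120A. All 10 libraries with Atxn1[82Q] were below WT. It fell by 0.16 ± 0.04 on the log2 scale in 82Q_M120A (674 ± 16.6 to 602 ± 28.6 CPM, adjusted p = 0.00217, edgeR), and stood at -0.10 ± 0.04 in 82Q (631 ± 18.8 CPM, adjusted p = 0.0852, edgeR). The difference in 82Q passed the threshold with DESeq2 (adjusted p = 0.026) and in an edgeR fit of only 82Q and WT (0.0496). Slc12a2 was at 213 ± 6.49, 224 ± 11.6 and 211 ± 8.99 CPM and was not called, but passed the threshold in 82Q against WT with a choroid plexus covariate (0.10, adjusted p = 0.0146). In 82Q_M120A against 82Q it stood at -0.09 ± 0.04 (adjusted p = 0.107, edgeR) and passed the threshold without 82Q-4 (adjusted p = 0.0431) or 82Q_M120A-1 (0.0395). The ratio of Slc12a5 to Slc12a2 counts was 3.07 to 3.24 in WT, 2.66 to 3.07 in 82Q and 2.5 to 3.1 in 82Q_M120A, so that WT lay just above 82Q and overlapped 82Q_M120A.

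**Figure D5:**
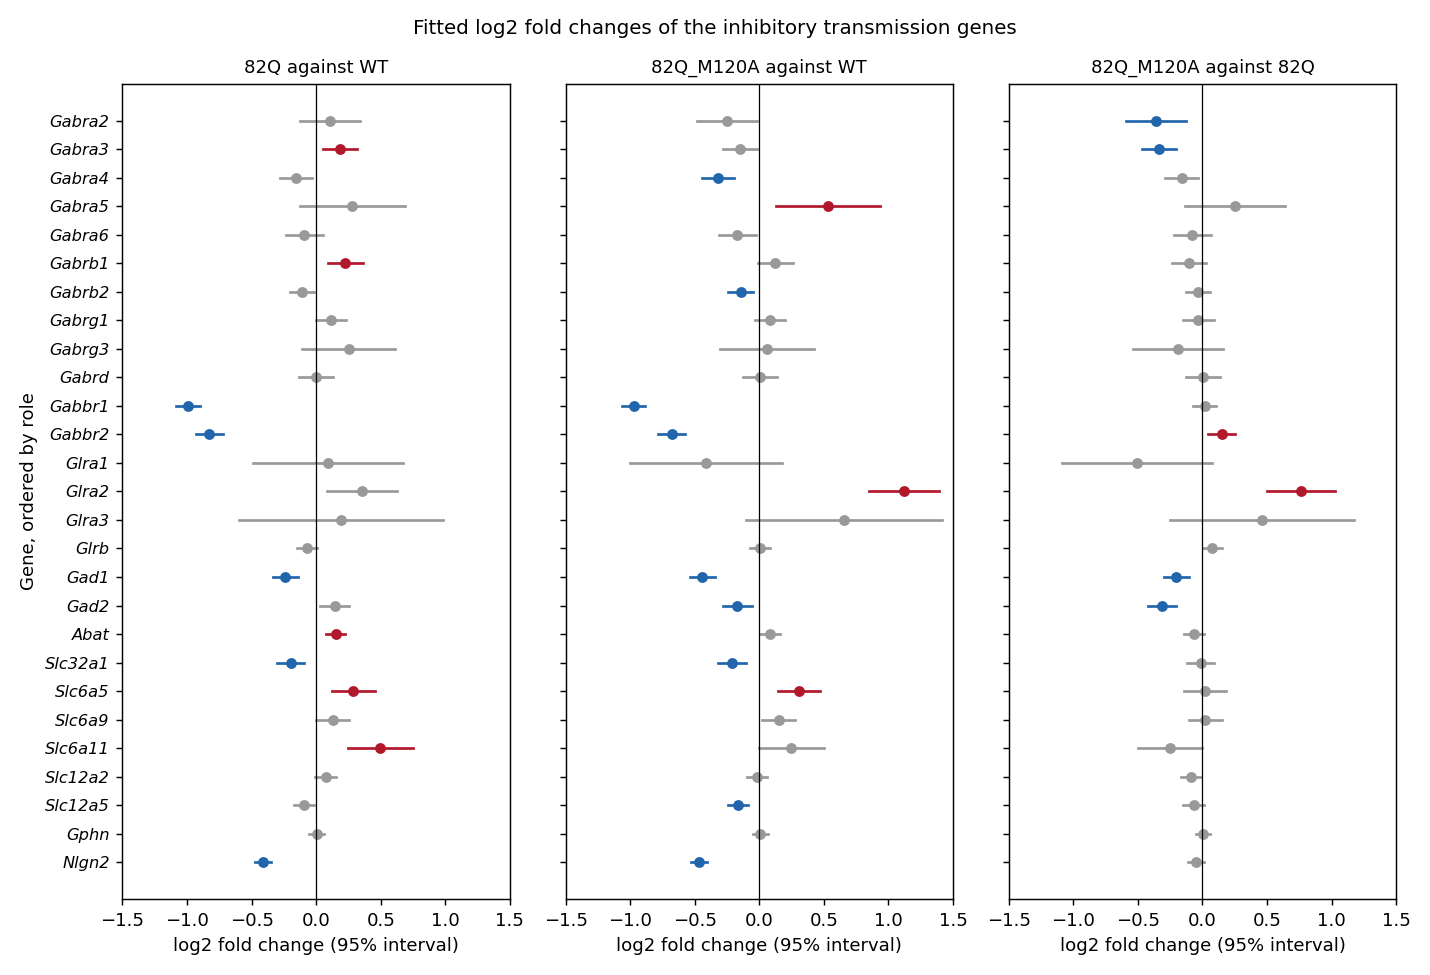
Each point is the log2 fold change of a member with its 95% interval in one of the 3 comparisons, coloured red where it was called higher, blue where called lower and grey where not called. Gabbr1, at -0.99 and -0.97 against WT, and Glra2, at 1.12 in 82Q_M120A against WT, lie farthest from 0 among the called members.

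Another 77 genes of inhibitory synapses were listed by their known roles, with earlier results of these data known. Of these, 74 were in the table and 71 were tested, and their shares of calls only describe the list. In 82Q against WT, 9 rose and 14 fell, and 32.4% were called, beside 18.7% of all tested genes. In 82Q_M120A against WT, 16 rose and 23 fell (54.9% called, beside 36.4%), and in 82Q_M120A against 82Q, 7 rose and 13 fell (28.2% called, beside 18.9%). Their median log2 fold changes were -0.02 in 82Q and -0.03 in 82Q_M120A against WT.

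Around the GABA-B receptor, Kctd12, an auxiliary subunit that shortens the receptor's response, fell from 355 ± 30.7 CPM in WT to 146 ± 10.9 in 82Q, a log2 fold change of -1.29 ± 0.07 (2.44-fold, adjusted p = 4.01e-10, edgeR). In 82Q_M120A it was at 152 ± 11.6 CPM (-1.22 ± 0.07 against WT, adjusted p = 6.07e-10, edgeR). The other Kctd genes listed were not called in 82Q against WT: Kctd8 at -0.10 (adjusted p = 0.258), Kctd12b at -0.07 (0.542) and Kctd16 at 0.10 (0.705, edgeR). Of 6 genes for effectors of the receptor, 2 (33.3%, beside 10.1% of all tested genes called lower) fell in 82Q: Gnao1, a G protein alpha subunit, by 0.37 ± 0.04 on the log2 scale, and the potassium channel subunit Kcnj9 by 0.28 ± 0.04. Both were also lower than WT in 82Q_M120A, at -0.31 ± 0.04 and -0.36 ± 0.04. The potassium channel subunit gene Kcnj6 and the G protein beta subunit gene Gnb5 rose in 82Q_M120A, by 0.30 ± 0.05 and 0.18 ± 0.03 against WT and by 0.25 ± 0.05 and 0.21 ± 0.03 against 82Q. Without overlap with WT, Kctd12, Gnao1 and Kcnj9 were low in all 10 libraries with Atxn1[82Q].

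Of the 13 tested scaffold and adhesion genes, 3 rose and 1 fell in 82Q (30.8% called, beside 18.7% of all tested genes), and 4 rose and 3 fell in 82Q_M120A against WT (53.8%, beside 36.4%). The gene that fell in 82Q was Dmd, which encodes dystrophin, a component of inhibitory postsynapses in Purkinje cells (70.2 ± 3.23 to 57.5 ± 2.42 CPM, -0.29 ± 0.05). The gene for the adhesion protein Slitrk3, a partner of presynaptic receptors at inhibitory synapses, rose by 0.27 ± 0.06 in 82Q. In 82Q_M120A against WT it was not called (0.06 ± 0.06, adjusted p = 0.452, edgeR). Of 17 receptor auxiliary and trafficking genes, a separate list, 2 rose and 3 fell in 82Q (29.4% called, beside 18.7% of all tested genes). In that list Lhfpl3, of the LHFPL family, rose by 0.34 ± 0.04 in 82Q and by 0.50 ± 0.04 in 82Q_M120A.

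In the chloride group, Car7, a carbonic anhydrase that supplies bicarbonate in neurons, fell from 71.3 ± 3.2 CPM in WT to 39.7 ± 2.61 in 82Q (-0.84 ± 0.05, adjusted p = 8.73e-10, edgeR) and to 30 ± 2.06 in 82Q_M120A (-1.25 ± 0.05, adjusted p = 1.04e-11, edgeR). It was lower in 82Q_M120A than in 82Q too, without overlap (-0.41 ± 0.05, adjusted p = 2.42e-05, edgeR). Of the 11 chloride genes, 6 fell in 82Q_M120A against WT (54.5%, beside 17.8% of all tested genes called lower), among them the gene of Wnk3, a kinase that regulates chloride cotransporters (-0.22 ± 0.04). In transport and metabolism, Slc6a6, the taurine transporter gene, fell by 0.46 ± 0.06 in 82Q and by 0.64 ± 0.06 in 82Q_M120A. Maob, which encodes monoamine oxidase B of glia, rose by 0.35 ± 0.06 and 0.43 ± 0.06, and the glutamine transporter gene Slc38a3 rose by 0.31 ± 0.07 in 82Q. Gldc, which encodes an enzyme of glycine cleavage, fell by 0.35 ± 0.05 in 82Q_M120A against WT.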

How the data were processed

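Cerebellar RNA libraries (TruSeq, HiSeq2500) of 15 samples were analysed from a deposited table of raw read counts per gene symbol, made with HISAT2 2.0.1, featureCounts and Subread on mm10, per the submitters' processing notes. Those notes also name CASAVA 1.8, R 3.3.3 and DESeq2 1.14.1. The gene annotation, strandedness and rule for multi-mapping reads were not given in the sources used here. Column names give the group but no replicate number. Genes were filtered with filterByExpr (minimum count 10), scaled with TMM factors and fitted over all 15 libraries with edgeR 4.0.16 (glmQLFit, robust, group only) in R 4.3.3, two-sided, with limma 3.58.1 and DESeq2 1.42.0 as alternatives. Standard errors were obtained as |log2 fold change| over the root of the F statistic. Levels per kilobase use the union of GENCODE M21 exons. The script was tested on simulated data. Members, lists and tests were chosen with earlier results of these data known. All members are named, and of each other list the up to 4 called genes with the smallest adjusted p per comparison, of which the text gives some. Kctd8, Kctd12b and Kctd16 are named in addition, beside Kctd12. A listed gene outside the members is not reported here.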

Additional observations from a re-analysis of the deposited data

Results flagged for a closer look

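Of 81 combinations of a member and a group, 6 had a library whose distance from its nearest neighbour was large relative to the range of the group. Chance flags about 1 in 20 such groups. In Gabbr1, WT-2 was at 868 CPM and the other WT libraries at 927 to 936. In Gabrd, WT-4 was at 304 CPM, above the others at 242 to 251. In Gabra3, WT-5, the shallowest library, was at 22.6 CPM, above the others at 19.9 to 20.7. In Gabbr2, 82Q_M120A-1 was at 163 CPM, below the others at 173 to 176. Library 82Q-3 stood apart in 2 members: it was at 105 CPM in Slc6a9, with the others at 121 to 126, and at 598 CPM in Slc12a5, with the others at 635 to 644.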

How the results depend on the processing

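No paired analysis was possible because the columns carry no replicate numbers. The sample labels also state no pairing of samples between groups, so a shared replicate number would not by itself define a pair. At an adjusted p under 0.01, the number of genes called was 1823 between 82Q and WT, 4060 between 82Q_M120A and WT, and 1645 between 82Q_M120A and 82Q (3142, 6118 and 3175 at 0.05); the stricter threshold itself lowers them. Leaving out each library in turn gave 2567 to 3003, 5450 to 6009 and 2562 to 3210 genes, and 8 to 12, 11 to 13 and 4 to 8 members. Single members were set against the main fit in 1608 checks, which include the main fit itself at the threshold of 0.01. Of these, 46 lost a call and 43 gained one with the same sign. In 1 more a call was gained with a change of sign. There Gabrd in 82Q_M120A against WT went from 0.0045 in the main fit, not called (adjusted p = 0.964, edgeR), to -0.13. The latter was called lower with the choroid plexus score as a covariate (adjusted p = 0.0158, edgeR), and the cause was not tested. In 59 more the sign changed with neither value called. Without TMM scaling, 73.0% of the calls in 82Q against WT and 68.8% in 82Q_M120A against WT were higher (46.2% and 51.1% with it), and the members split 10 higher to 5 lower and 6 to 7. In all 20 alternatives, Gabbr1, Gabbr2, Gad1, Slc32a1 and Nlgn2 were called lower in both comparisons with WT. Depth limits Gabra5, Gabrg3 and Glra3, with means under 1 CPM.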
